A study of Homo sapiens with 32 samples.

Results

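Axon guidance ligands and receptors were followed in LNCaP cells, an established human prostate cancer line that responds to androgen, after treatment with the synthetic androgen analogue R1881. They were taken by gene symbol: semaphorins (*SEMA*), plexins (*PLXN*), the neuropilins *NRP1* and *NRP2*, ephrins (*EFN*), Eph receptors (*EPHA* and *EPHB*), netrins (*NTN*), *UNC5* receptors, Robo receptors and slits. The rule found 64 transcript clusters, which are the array's units for a gene, of 16309 in all, and these named 62 genes. *EPHA6* and *EPHA10* each had a pair of clusters. *UNC50* matched by its letters only and encodes a Golgi membrane protein, not a netrin receptor. A further 5 clusters named several genes, at least 1 of them matched by the rule, and were left out. They held *EFNA4* with *EFNA3*, and *SLIT2*, *SLIT3*, *UNC5CL* or *SEMA3E* each together with another name. None of these was called, and the cluster of *EFNA4* and *EFNA3* is given with the ephrins.

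RNA came from 8 samples, each hybridised to an exon array. The R1881 group (n = 4) was grown for 72 hours in medium with charcoal-stripped serum, which lacks steroids, and then for 24 hours with 10 nM R1881. The steroid-deplete group (n = 4) was grown in the same medium without R1881. All arrays thus hold the same cell line, and the replicates are described only as a quadruplicate, so the p-values measure the spread between these arrays. In RNA from a whole culture, fewer cells with a transcript and less transcript per cell cannot be told apart.

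Axon guidance cues steer growing nerve fibres and are also made by many epithelia. Semaphorins bind plexins, with neuropilins as co-receptors of the secreted class. Ephrins sit in the membrane and bind Eph receptor tyrosine kinases on the neighbouring cell, with signals into both cells. Slits bind Robo receptors and commonly repel the cell, and netrins act through DCC, neogenin and the UNC5 receptors.

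The authors deposited gene-level values on the log2 scale from RMA, a method that summarises the core probes of a cluster after background correction and quantile normalisation. The array medians lay between 6.22 and 6.31 in the R1881 group and between 6.33 and 6.40 in the steroid-deplete group. On the second principal component, with 8.27% of the variance, R1881 replicate 4 (17.6) and steroid-deplete replicate 1 (13.5) stood apart from the other arrays (-12.5 to 0.01). Of 9 luminal prostate and androgen response markers 4 were measured, and 3 rose more than 2-fold (*KLK2*, *KLK3* and *TMPRSS2*), while *HOXB13*, a homeobox factor of the prostate, fell (log2 fold change -0.44, adjusted p = 0.00183 from limma). *KLK3*, which encodes prostate-specific antigen, averaged 12.24 ± 0.07 with R1881 and 10.41 ± 0.09 in steroid-deplete medium (SD, n = 4 each). Of 5 stromal markers, *LUM* fell (log2 fold change -0.31, adjusted p = 0.0165; means 2.26 with R1881 and 2.56 without), the others did not pass an adjusted p of 0.05, and the mean over the list lay between 4.61 and 4.70 on the R1881 arrays and between 4.64 and 4.76 on the steroid-deplete arrays. Of 4 basal epithelial markers only *ITGB4* was measured, and it did not pass (log2 fold change -0.09, adjusted p = 0.429 from limma). Of 5 neuroendocrine markers 4 were measured. *ENO2*, which encodes neuron-specific enolase, fell, with averages of 7.97 ± 0.09 with R1881 and 8.76 ± 0.11 without (SD, n = 4 each; log2 fold change -0.79, adjusted p = 7.96e-06), and *CHGA*, *CHGB* and *SCG2* did not pass. The part of these changes in the results below was not tested.

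Each cluster was compared with limma over all 16309 clusters, with R1881 minus steroid-deplete as the log2 fold change. A call needed a change of at least 2-fold with an adjusted p under 0.005 (Benjamini-Hochberg). Among the 64 clusters, 3 were called lower after R1881 (*SEMA6D*, *ROBO1* and *EPHA3*), where 2.04% of all clusters were called lower, and 0 were called higher, where 1.94% of all clusters were called higher. At an adjusted p under 0.05 from limma, without a fold limit, 13 members were lower and 7 higher, against 19.8% and 10.5% of all clusters. Those are 31.25% of the members in either direction and 30.3% of all clusters, so the families as a whole changed about as often as the rest of the array. At an unadjusted p under 0.05, 17 were lower and 9 higher, where 24.5% and 14% of all clusters were. The 4 R1881 and 4 steroid-deplete values did not overlap for 13 members on the lower side and 8 on the higher side, where 18.7% and 11.2% of all clusters did not overlap. The median log2 fold change was -0.05 over the members and -0.0030 over all clusters. The other 44 members did not pass, with log2 fold changes between -0.30 and 0.34. Of the 64 members, 27 had a mean at or above the median of all clusters, and 16 of the 20 that passed were among these. That is 59.3% of the 27, where 44.7% of all clusters at or above the median passed.

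**Figure D1:**
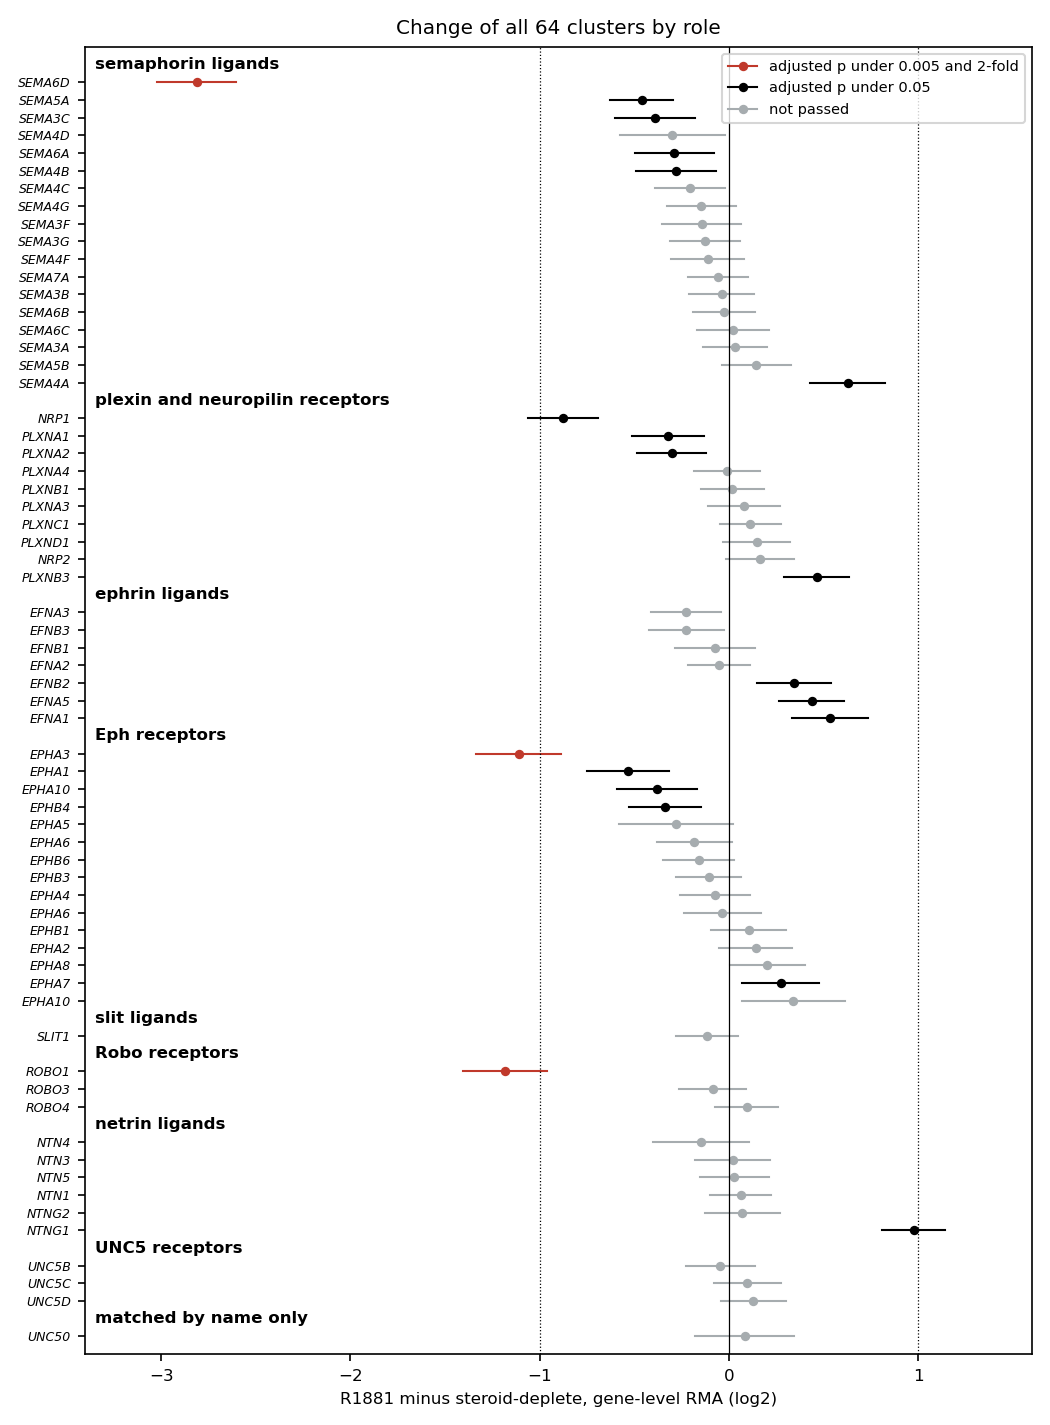
The log2 fold change (R1881 minus steroid-deplete, gene-level RMA) of all 64 clusters with its 95% confidence interval from limma, grouped by role, with dotted lines at 2-fold. *SEMA6D* at -2.81, *ROBO1* at -1.18 and *EPHA3* at -1.11 are the called members, and *NTNG1* at 0.97 lies just inside the line on the higher side.

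The counts depended on how the arrays were scaled. With each array centred on its median, which raised the median of all clusters to 0.10, 13 members were higher and 9 lower at an adjusted p under 0.05, where 19% and 14.9% of all clusters were. The 6 that passed in addition were *EPHA8*, *NRP2*, *SEMA5B*, *PLXND1*, *UNC5D* and a cluster of *EPHA10*, all higher. With a further quantile normalisation, 11 were higher and 11 lower, where 14.4% and 18.1% of all clusters were. With the deposited Iter-PLIER gene values, another summary of the same probes tested as log2(value + 16), 7 were higher and 24 lower, where 10% and 23.8% of all clusters were. The 11 lower members that passed in addition were *EFNA3*, *EFNB3*, *EPHB6*, *ROBO3*, *UNC5B* and the semaphorins *SEMA3B*, *SEMA3F*, *SEMA4C*, *SEMA4D*, *SEMA4F* and *SEMA4G*. Of the 20 members that passed with RMA, 13 had a log2 fold change more than 1.5 times as large with Iter-PLIER. Besides those given below they were *PLXNB3* (0.91), *PLXNA1* (-0.71), *PLXNA2* (-0.51), *SEMA3C* (-0.59), *SEMA6A* (-0.60), *SEMA4B* (-0.72), *EFNB2* (0.61), *EPHA7* (0.54) and *EPHA10* (-1.09). At the stricter limits, Iter-PLIER called 1 member higher (*NTNG1*), where 2.72% of all clusters were called higher, and 7 lower (the same 3 genes and *SEMA5A*, *EPHA1*, *EPHA10* and *EFNB3*), where 5.67% of all clusters were called lower. None of the 20 members that passed with RMA changed sign under any of the 16 alternatives that tested them. The filter on dim clusters left out 4 of the 20, *SEMA6D* among them, whose mean lay below the median of all clusters.

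The sequence before the annotated start of each called gene is shown because these 3 genes fell at least 2-fold. The 250 bases before the start come from RefSeq (build GRCh38.p14) and run 5′ to 3′ on the gene's strand, and capitals mark CACCTG, an E-box that repressors of the SNAI family bind. *ROBO1* has an outer and an inner annotated start. *SEMA6D* has 3, of which the outermost is shown.
*SEMA6D* (chr15:47183839-47184088, plus strand): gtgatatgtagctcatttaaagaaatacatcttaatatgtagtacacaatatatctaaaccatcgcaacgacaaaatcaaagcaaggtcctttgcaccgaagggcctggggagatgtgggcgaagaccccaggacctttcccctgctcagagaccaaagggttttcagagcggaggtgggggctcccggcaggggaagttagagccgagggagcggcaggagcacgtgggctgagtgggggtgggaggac
*ROBO1*, outer start (chr3:79767999-79768248, minus strand): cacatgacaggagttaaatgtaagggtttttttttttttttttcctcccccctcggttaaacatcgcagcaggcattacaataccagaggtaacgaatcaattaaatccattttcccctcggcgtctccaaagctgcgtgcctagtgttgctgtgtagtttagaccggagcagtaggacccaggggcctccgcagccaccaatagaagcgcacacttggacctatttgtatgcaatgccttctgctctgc
*ROBO1*, inner start (chr3:79019460-79019709, minus strand): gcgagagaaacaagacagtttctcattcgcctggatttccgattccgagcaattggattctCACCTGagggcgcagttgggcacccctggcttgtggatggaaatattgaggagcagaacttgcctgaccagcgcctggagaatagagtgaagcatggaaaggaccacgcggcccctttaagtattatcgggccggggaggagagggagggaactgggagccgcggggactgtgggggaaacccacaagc
*EPHA3* (chr3:89107371-89107620, plus strand): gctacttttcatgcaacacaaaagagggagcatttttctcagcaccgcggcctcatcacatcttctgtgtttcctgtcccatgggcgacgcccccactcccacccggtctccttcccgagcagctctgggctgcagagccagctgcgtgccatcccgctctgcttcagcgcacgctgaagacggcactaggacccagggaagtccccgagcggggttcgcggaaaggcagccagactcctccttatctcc
Neither these windows nor the other starts of *SEMA6D* held AGAACA, the half-site of the androgen receptor, on either strand in the 300 bases from 250 before to 50 after the start. Of the 62 genes, 51 were in the promoter table, with 82 windows, and 2 of these windows held AGAACA (*EPHB6* and *NTN5*, neither past the test), or 2.44%, where 14.8% of all 35116 windows held it. The members' windows were richer in G and C, with a median of 65.4% against 58% over all windows, and the part of this difference in the shares was not tested. CACCTG, searched on both strands as well, stood in 15 of the 82 windows (18.3%) and in 20.6% of all windows. These are matches of letters in short windows, and they say nothing of sites elsewhere.

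Semaphorins are secreted or membrane-bound ligands. Of 18 members, 5 fell and 1 rose at an adjusted p under 0.05, where 19.8% and 10.5% of all clusters did. The other 12 did not pass, with log2 fold changes between -0.30 and 0.14. *SEMA6D* (transcript cluster 3592755), a membrane-bound ligand of plexin A1, had log2 values of 4.66, 4.45, 4.88 and 4.64 in the R1881 group, against 7.43, 7.58, 7.36 and 7.50 in the steroid-deplete group. The groups lay far apart, and the R1881 values were below the medians of their arrays while the steroid-deplete values were above theirs. The change on the log2 scale was -2.81 with a standard error of 0.10 (adjusted p = 1.49e-10 from limma), a level 7.02-fold lower after R1881. *SEMA4A* (2361342), a membrane-bound ligand of B-type plexins and plexin D1 with roles in immune cells and the retina, went the other way. Its values were 8.99, 8.71, 8.66 and 8.80 with R1881 and 8.19, 8.05, 8.16 and 8.26 without, with no overlap. Its log2 fold change was 0.63 with a standard error of 0.09 (adjusted p = 1.22e-04), and with RMA as deposited no other semaphorin rose.

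*SEMA5A*, a membrane-bound ligand of plexin B3, had values between 5.50 and 5.68 with R1881 and between 5.98 and 6.09 in steroid-deplete medium. All R1881 values were lower, with a log2 fold change of -0.46 (adjusted p = 4.03e-04 from limma), which was -1.65 with Iter-PLIER. *SEMA3C*, a secreted ligand that signals through neuropilins, averaged 8.36 ± 0.14 with R1881 and 8.75 ± 0.15 without (SD, n = 4 each; log2 fold change -0.39, adjusted p = 0.00787). *SEMA6A*, a membrane-bound ligand of plexins A2 and A4, and *SEMA4B* fell by less, with log2 fold changes of -0.29 (adjusted p = 0.0371) and -0.28 (adjusted p = 0.0453). The *SEMA6A* call was lost when any of 6 of the 8 arrays was left out, with steroid-deplete replicate 1 and R1881 replicate 1 as the exceptions, and the *SEMA4B* call when any of 7 was left out, with R1881 replicate 3 as the exception. *SEMA3F*, a secreted semaphorin and among the brighter members that did not pass, had a log2 fold change of -0.14 (95% confidence interval -0.35 to 0.07, adjusted p = 0.308), and -0.66 with Iter-PLIER (adjusted p = 0.00581).

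Neuropilins and plexins are the receptors of semaphorins. Of 10 members, 3 fell and 1 rose, where 19.8% and 10.5% of all clusters did, and 6 did not pass (-0.01 to 0.16). *NRP1* (3284302), co-receptor of secreted semaphorins and of vascular endothelial growth factor, had values of 10.43, 10.30, 10.45 and 10.20 with R1881, against 11.27, 11.31, 11.14 and 11.18 in steroid-deplete medium. The R1881 values were all lower, by more than the spread within either group. This gave a log2 fold change of -0.88 with a standard error of 0.09 (adjusted p = 3.14e-06), or 1.84-fold, short of the fold limit, which it passed after a further quantile normalisation (-1.06). The other neuropilin, *NRP2*, had a log2 fold change of 0.16 (95% confidence interval -0.02 to 0.34, adjusted p = 0.175), and the difference between these changes was not tested.

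*PLXNB3*, the plexin that binds the SEMA5A protein, rose, with values of 7.49, 7.46, 7.60 and 7.42 after R1881 and 7.12, 6.95, 6.96 and 7.08 without. The values did not overlap, and the log2 fold change was 0.46 (adjusted p = 5.41e-04). *PLXNA1* and *PLXNA2*, which transmit signals of secreted and class 6 semaphorins, fell, with log2 fold changes of -0.32 (adjusted p = 0.0127) and -0.30 (adjusted p = 0.0144). Neither call held when the arrays were centred on their medians (adjusted p = 0.0546 and 0.0977). *PLXNA3* did not pass (0.08, 95% confidence interval -0.11 to 0.27), nor did *PLXNB1* (0.02, -0.15 to 0.18). *PLXNB1* also changed sign, to -0.29 with Iter-PLIER and to -0.02 without steroid-deplete replicate 2.

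**Figure D2:**
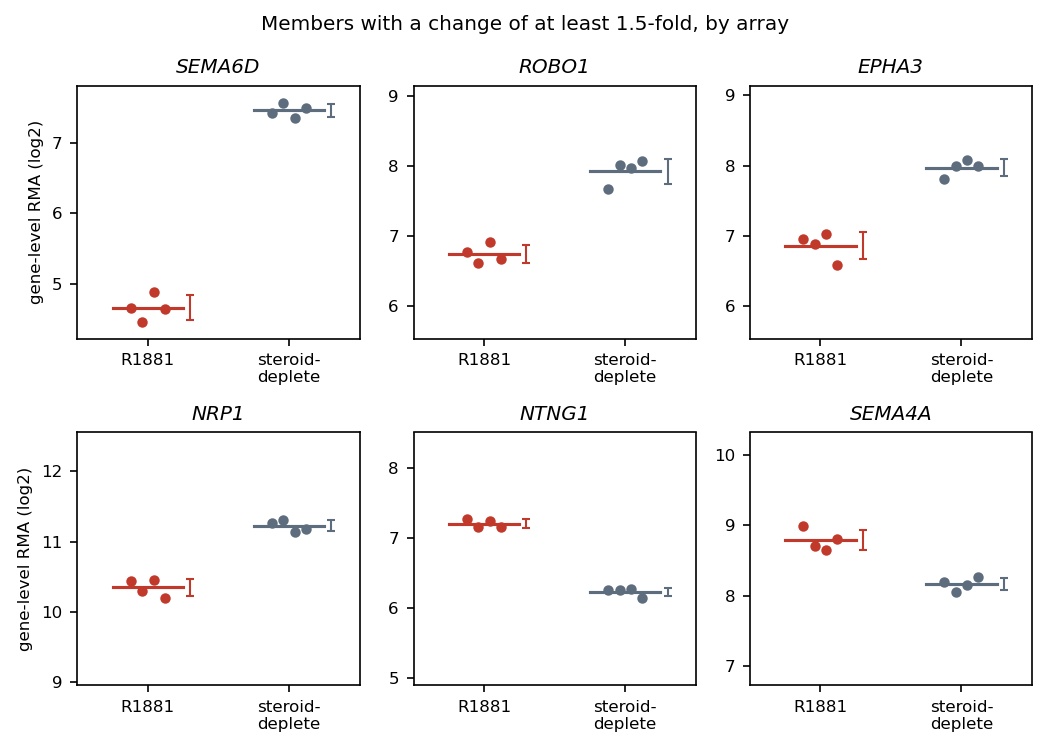
Gene-level RMA values (log2) of the 6 members that passed an adjusted p under 0.05 with at least 1.5-fold, with the R1881 arrays left of the steroid-deplete arrays in each panel, lines at the group means and bars of 1 SD (n = 4 each), all panels on the same span. *SEMA6D*, *ROBO1*, *EPHA3* and *NRP1* lie lower after R1881 and *NTNG1* and *SEMA4A* higher, without overlap.

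Ephrins are the ligands of Eph receptors. Of 7 members, 3 rose and none fell, where 10.5% and 19.8% of all clusters did, and 4 did not pass (-0.23 to -0.05). *EFNA1*, a ligand of A-type Eph receptors held to the membrane by a lipid anchor, had values of 8.34, 8.46, 8.08 and 8.24 with R1881 and 7.63, 7.71, 7.82 and 7.83 without. Each R1881 value was higher than each steroid-deplete value, with a log2 fold change of 0.53 (adjusted p = 6.05e-04). *EFNA5*, of the same class, averaged 10.75 ± 0.08 with R1881 and 10.31 ± 0.07 without (SD, n = 4 each; log2 fold change 0.44, adjusted p = 7.75e-04). *EFNB2*, a membrane-spanning ephrin and the ligand of EPHB4, had values of 7.07, 7.06, 7.32 and 6.97 with R1881 and 6.68, 6.72, 6.80 and 6.85 without. These did not overlap, and the log2 fold change was 0.34 (adjusted p = 0.0106). *EFNA3* had a log2 fold change of -0.23 (95% confidence interval -0.41 to -0.04) and an adjusted p of 0.0624, which became 0.0228 without steroid-deplete replicate 1 and 0.0376 with Iter-PLIER. *EFNB3* had a like value of -0.23 (adjusted p = 0.0808), and was called with Iter-PLIER at -1.01. The cluster that names both *EFNA4* and *EFNA3*, which is not among the 7 members, rose. It averaged 7.34 ± 0.14 with R1881 and 7.04 ± 0.06 without (SD, n = 4 each), without overlap. Its log2 fold change was 0.30 (adjusted p = 0.0189 from limma), and the other left-out clusters did not pass.

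Among the 15 clusters of 13 Eph receptors, 4 fell and 1 rose, where 19.8% and 10.5% of all clusters did. The other 10 did not pass (-0.28 to 0.34). *EPHA3* (2632225), a receptor of A-type ephrins, had values of 6.95, 6.88, 7.02 and 6.58 with R1881, against 7.81, 7.99, 8.09 and 8.00 in steroid-deplete medium. No R1881 value reached the steroid-deplete range. Its log2 fold change was -1.11 with a standard error of 0.10 (adjusted p = 1.99e-06), or 2.16-fold lower. *EPHA1* had values of 6.82, 6.70, 6.77 and 6.84 with R1881 and 7.12, 7.17, 7.45 and 7.53 without. It too was lower on every R1881 array (log2 fold change -0.54, adjusted p = 9.96e-04), and its log2 fold change was -1.20 with Iter-PLIER. *EPHB4*, the receptor of the EFNB2 protein, averaged 7.43 ± 0.06 with R1881 and 7.77 ± 0.15 without (SD, n = 4 each; log2 fold change -0.34, adjusted p = 0.00985), and its log2 fold change was -0.97 with Iter-PLIER.

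The pair of *EPHA10* clusters, whose protein lacks kinase activity, differed. Cluster 2407314 averaged 5.84 ± 0.14 with R1881 and 6.22 ± 0.15 without (SD, n = 4 each; log2 fold change -0.38, adjusted p = 0.00913). Cluster 2407359 averaged 5.87 ± 0.21 with R1881 and 5.53 ± 0.23 without (log2 fold change 0.34, adjusted p = 0.0590). The first fell, the second did not pass, and the difference between them was not tested. *EPHA7* rose, alone among the Eph receptors with RMA as deposited, with values of 7.21, 7.06, 7.19 and 6.95 after R1881 and 6.62, 6.92, 6.90 and 6.87 without. The gap between the groups was narrow (log2 fold change 0.27, adjusted p = 0.0421), and the call was lost when any of 6 of the 8 arrays was left out, with R1881 replicate 4 and steroid-deplete replicate 2 as the exceptions. *EPHA6* did not pass in either cluster, at -0.18 (95% confidence interval -0.38 to 0.02) for the brighter and -0.04 (-0.24 to 0.17) for the other.

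Of the slits, *SLIT1* was the only one with a cluster of its own, and it did not pass (-0.12, 95% confidence interval -0.28 to 0.05), although its 4 R1881 values were all below its 4 steroid-deplete values. Of 3 Robo receptors, 1 fell, where 19.8% of all clusters did. *ROBO1* (2683763), which binds slits through its outer immunoglobulin domains, had values of 6.77, 6.62, 6.91 and 6.67 with R1881, against 7.67, 8.01, 7.97 and 8.07 in steroid-deplete medium. The groups did not overlap, and steroid-deplete replicate 1 was the lowest of its group. This was a log2 fold change of -1.18 with a standard error of 0.10 (adjusted p = 1.00e-06), or 2.27-fold lower. *ROBO3* (-0.09, 95% confidence interval -0.27 to 0.09) and *ROBO4*, known from blood vessels (0.09, -0.07 to 0.26), did not pass.

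Of 6 netrins, *NTNG1* rose, where 10.5% of all clusters did, and 5 did not pass (-0.15 to 0.07). *NTNG1* (2349863) encodes netrin G1, which is anchored in the membrane and does not act through the usual netrin receptors. Its values were 7.27, 7.16, 7.24 and 7.15 with R1881, against 6.26, 6.25, 6.27 and 6.14 in steroid-deplete medium (SD 0.06 in each group), and the groups did not overlap. On the log2 scale the change was 0.97 with a standard error of 0.08 (adjusted p = 3.78e-07), or 1.96-fold higher. It passed the 2-fold limit with Iter-PLIER (1.57), with centred arrays (1.08), with quantile normalisation (1.07) and without both arrays that stood apart. *NTN1*, the classical secreted netrin, had a log2 fold change of 0.06 (95% confidence interval -0.10 to 0.22). None of the 3 UNC5 receptors passed with RMA as deposited (-0.05 to 0.13).

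Exon-level RMA values, also on the log2 scale, were compared in the same way over 620335 probe sets, each of which covers about an exon. Of 1433 probe sets of the 62 genes, 107 were lower at an adjusted p under 0.05 from limma (7.47%), where 2.4% of all probe sets were lower, and 15 were higher (1.05%), where 1.65% of all were higher. The shares are of unlike sets. The members' probe sets all belong to a named gene with a gene-level cluster, while those of the whole array include probe sets without either. Probe sets of a gene share its transcripts and are no separate samples of it. The lower ones were mostly those of 4 genes: *ROBO1* with 28 of 42, *NRP1* with 22 of 31, *SEMA6D* with 21 of 24 and *EPHA3* with 19 of 24. The higher ones lay in *NTNG1* (6 of 20), *SEMA4A* (4 of 20), *PLXNB3* (3 of 38), *EFNA1* (1 of 11) and *PLXNB1* (1 of 48).

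**Figure D3:**
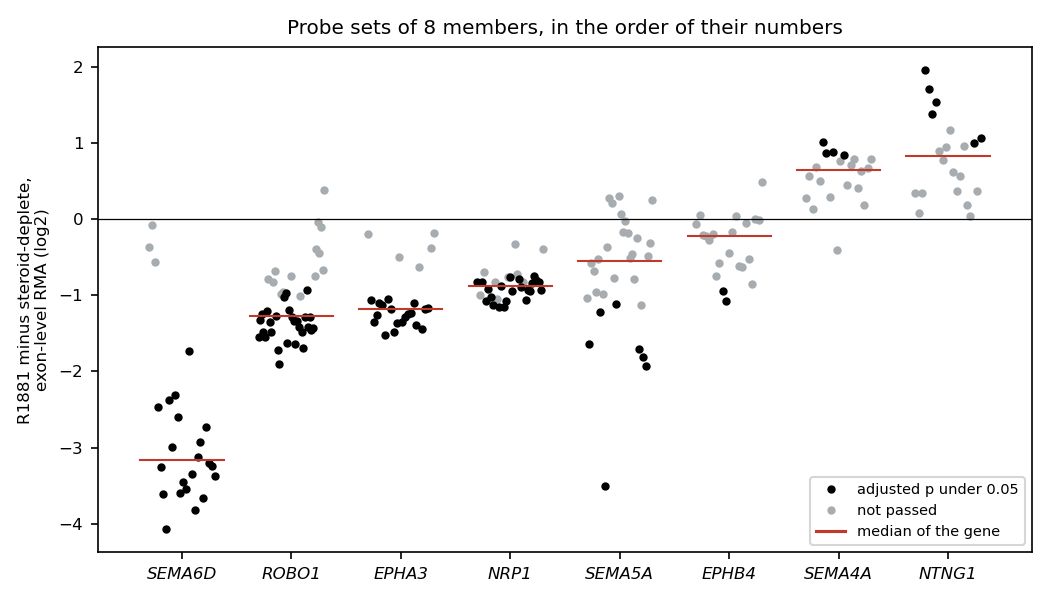
The log2 difference (R1881 minus steroid-deplete, exon-level RMA) of each probe set of 8 members, in the order of the probe set numbers within a gene, with black points for an adjusted p under 0.05 and red lines at the median of the gene. All probe sets of *SEMA6D*, *EPHA3* and *NRP1* lie below 0 and all of *NTNG1* above 0, while *SEMA5A* reaches from -3.51 to 0.31.

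In *SEMA6D* the differences ranged from -4.07 to -0.08, with a median of -3.16, and all 24 were below 0. *EPHA3* (median -1.18) and *NRP1* (median -0.88) also had all their probe sets below 0, 24 and 31 of them. *NRP1* was the more even, with a range from -1.16 to -0.33.

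*SEMA5A* was uneven. Of its 30 probe sets 7 were lower and 25 lay below 0. Probe set 2847987 averaged 2.93 with R1881 and 6.44 without, a log2 difference of -3.51 (adjusted p = 2.46e-05). Probe set 2847991, the brightest of *SEMA5A*, averaged 9.66 with R1881 and 9.45 without, and did not pass (0.21, adjusted p = 0.726).

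*NTNG1* was uneven in the other direction, with all 20 probe sets above 0. Probe set 2349869 averaged 8.01 with R1881 and 6.05 without (log2 difference 1.95, adjusted p = 0.00198), and 2349902 averaged 8.69 with R1881 and 7.15 without (1.54, adjusted p = 9.55e-04). The *NTNG1* probe sets with the lowest numbers, 2349864, 2349865 and 2349867, had differences of 0.34, 0.08 and 0.35 and did not pass.

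*ROBO1* had 41 of 42 probe sets below 0. Probe set 2683865 of *ROBO1* averaged 7.01 with R1881 and 8.46 without, a log2 difference of -1.46 (adjusted p = 8.30e-04). Probe set 2683870, numbered close to it, had values of 8.75, 8.98, 8.79 and 9.39 with R1881 and 8.88, 8.94, 9.20 and 9.06 without. These overlapped, and the log2 difference was -0.04 (adjusted p = 0.956). Its neighbours in number, 2683868 and 2683871, had differences of -0.39 and -0.45 and did not pass either. The place of each probe set in the transcript was not used here.

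**Figure D4:**
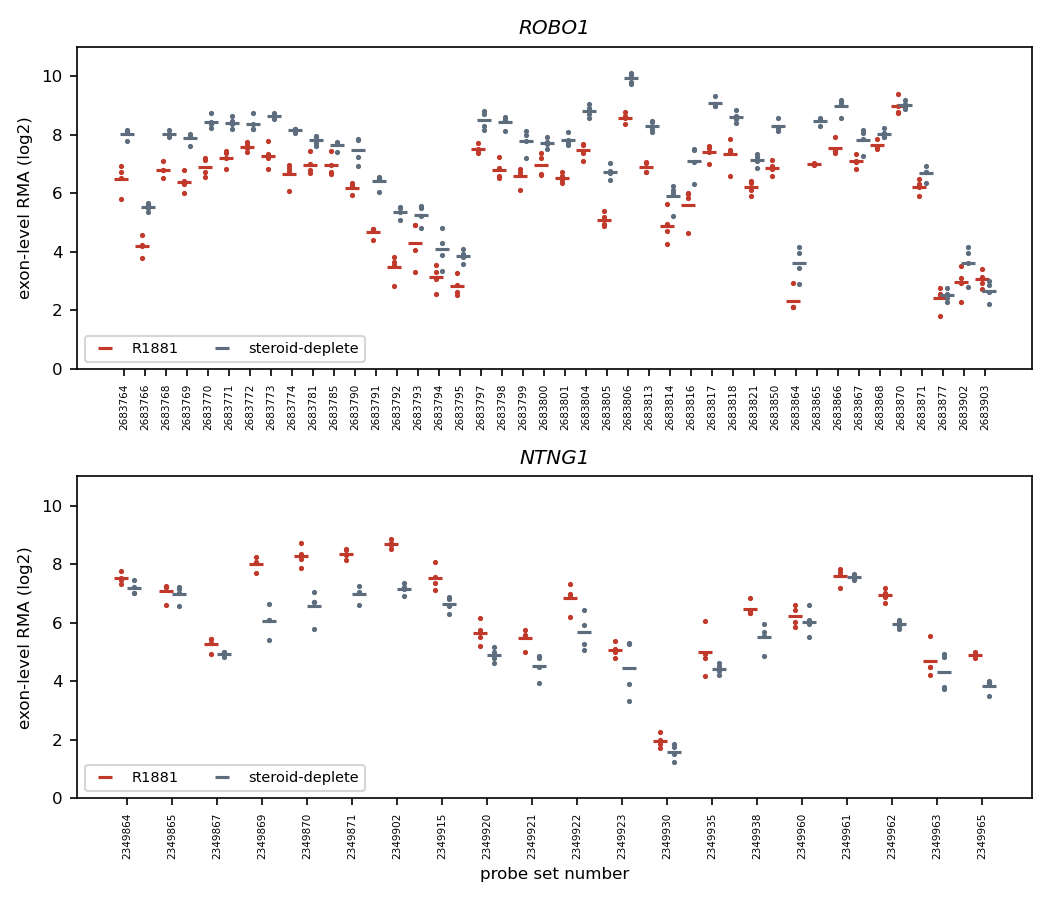
Exon-level RMA values (log2) of every *ROBO1* and *NTNG1* probe set in the order of their numbers, with a point for each array and a bar at the group mean, R1881 left of steroid-deplete. Most *ROBO1* probe sets lie lower with R1881, while 2683870 averages 8.98 with R1881 and 9.02 without.

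To ask which probe sets departed from their gene, exon-level intensities were set against gene-level Iter-PLIER intensities as log2 differences (pseudocount 16), and limma was run on those that passed filters on level, with a limit of 0.001 on the unadjusted p. Of 434 probe sets in 25 members, 15 were higher relative to their gene, where 1.73% of all 80435 probe sets were higher, and 0 were lower, where 0.786% were lower. They lay in *EPHB4* (6 of 21 tested), *ROBO1* (4 of 36), *SEMA3F* (2 of 22), *EFNA3*, *EPHA3* and *PLXNB1* (1 each). With gene-level Iter-PLIER these 6 genes had log2 fold changes below 0, from -1.49 (*ROBO1*) to -0.29 (*PLXNB1*). All 22 *SEMA3F* probe sets were above 0 relative to their gene (0.20 to 1.02), and those of *EPHB4* ran from -0.04 to 1.40. In *EPHA7* and *EPHA8*, with Iter-PLIER changes of 0.54 and 0.40, all lay below 0 and none was called. The part of the gene value in these calls was not tested. *SEMA6D*, *SEMA5A* and *NTNG1* were not among the genes that passed the filters.

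The largest was probe set 2683870 of *ROBO1*. Relative to *ROBO1* it stood at 0.78, 1.14, 0.48 and 1.502 with R1881, against -0.38, -0.69, -0.43 and -0.61 in steroid-deplete medium, a difference of 1.503 with a standard error of 0.20 (adjusted p = 0.00464 from limma). The values did not overlap, and the difference stayed within that limit in each of 12 alternatives, between 1.14 and 1.67. Probe set 3064333 of *EPHB4* averaged -1.67 ± 0.23 with R1881 and -3.07 ± 0.14 without (SD, n = 4 each), a difference of 1.40 (adjusted p = 9.48e-04 from limma). The filters kept a probe set that lay within 5-fold of its gene in either treatment. The *EPHB4* probe set lay farther below its gene in steroid-deplete medium. It was thus tested only through R1881, the group where it was higher, and its call depends on that filter. Probe set 2622573 of *SEMA3F* had a difference of 1.02 (adjusted p = 0.00449 from limma). With exon-level and gene-level RMA in their place, the *EPHB4* and *SEMA3F* differences were 0.82 and 0.34 and no longer passed, and 4 member probe sets in all were higher and 2 lower. The share of all probe sets that passed with RMA values is not given here, so these counts cannot be set against the array. The 3 smallest of the 15 were probe sets of *ROBO1* (2683821, 0.59), *EPHA3* (2632316, 0.59) and *PLXNB1* (2673210, 0.70), and each lost its call in most alternatives. The *EPHA3* probe set, too, lay within 5-fold of its gene only with R1881 (means -2.11 with R1881 and -2.71 without).

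Genes that act beside or below these receptors were read from a list of 89 symbols (co-receptors, growth factors that share neuropilins, and cytoplasmic effectors), of which 69 were measured in 70 clusters. Of the clusters, 3 were called higher and 3 lower, where 1.94% and 2.04% of all clusters were called. At an adjusted p under 0.05 from limma 6 were higher and 19 lower, against 10.5% and 19.8% of all clusters. The list was chosen with earlier results of these data known. *USP33*, a deubiquitinase that binds ROBO1, averaged 9.94 ± 0.17 with R1881 and 8.63 ± 0.12 without (SD, n = 4 each), so its log2 fold change was 1.31 (adjusted p = 2.73e-07). *SRGAP3*, a GTPase-activating protein of the slit and Robo pathway, averaged 5.64 ± 0.12 with R1881 and 6.91 ± 0.13 without (SD, n = 4 each), so its log2 fold change was -1.28 (adjusted p = 1.71e-07; -2.21 with Iter-PLIER), and *SRGAP1* of the same family rose by less (0.52, adjusted p = 0.00231).

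*VEGFA*, the vascular growth factor that also binds NRP1, averaged 9.58 ± 0.22 with R1881 and 8.19 ± 0.10 without (SD, n = 4 each; log2 fold change 1.39, adjusted p = 3.69e-07). *LRIG1*, a membrane protein that restrains receptor tyrosine kinases, rose by 1.81 on the log2 scale (adjusted p = 2.24e-08). *DPYSL2*, a collapsin response mediator that acts below secreted semaphorins, averaged 6.77 ± 0.04 with R1881 and 8.24 ± 0.19 without (SD, n = 4 each; log2 fold change -1.47, adjusted p = 5.88e-08). *ABLIM1*, an actin-binding protein, had the lowest log2 fold change of the list at -1.79 (adjusted p = 3.62e-09). *NEO1*, which encodes the netrin receptor neogenin, rose by 0.32 (adjusted p = 0.0246), and *DCC* did not pass (-0.08, 95% confidence interval -0.27 to 0.12).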

How the data were processed

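RNA of 8 LNCaP samples was analysed, 4 with R1881 and 4 in steroid-deplete medium, grouped as labelled. The authors reduced ribosomal RNA, labelled it for exon arrays and deposited gene-level RMA values on the log2 scale, gene-level Iter-PLIER intensities, and exon-level intensities and log2 RMA values. The submitters' processing notes name RMA, PLIER and hg18 without versions. For the exon-level intensity the label gives Iter-PLIER and the methods give PLIER. Detection p-values and probe counts were not used here.

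Symbols came from the arrays' annotation, with 20 updated through a RefSeq table. Members and lists were chosen with earlier results of these data known. Values were compared with limma 3.58.1 in R 4.3.3 (Benjamini-Hochberg over all features), and tables were read with an R package for data tables (data.table, version 1.17.8) and, for RefSeq promoters, with pandas in Python. The fits were tested on simulated data. Probe sets relative to their gene were kept where the gene changed at most 10-fold and the probe set lay within 5-fold of it in either treatment. The fit of single probe sets on exon-level RMA was added after the data had been seen.

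Named members were those called, those past 1.5-fold at an adjusted p under 0.05, and the 5 brightest that did not pass. Further members past 0.05 and single probe sets were named after their values were seen. The called genes of the pathway list and, of the called probe sets, the 3 highest and 3 lowest differences were named, and other pathway genes after their values were seen. Alternatives were Iter-PLIER values, centring, quantile normalisation, a filter on dim clusters, the methods' t-test, a trend with robust variances, the replicate number as a block and leaving out each array. Leaving out both arrays that stood apart was added after the data had been seen.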

Additional observations from a re-analysis of the deposited data

Results flagged for a closer look

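Of 74 groups of 4 arrays tested, 1 held a value far from the rest, and chance gives about 1 in 20 groups. It was the *NTNG1* value of steroid-deplete replicate 4 at 6.14, where the other steroid-deplete arrays lay between 6.25 and 6.27. Without that array the *NTNG1* change kept its direction and its side of the threshold.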

How the results depend on the processing

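Called members were 0 higher and 3 lower in each fit that left out 1 array. The filter on dim clusters left 2 called lower, since it left *SEMA6D* out. There was 1 called higher with Iter-PLIER, with centred arrays, with quantile normalisation, and without both arrays that stood apart (chosen after seeing the data), each time *NTNG1*. Called lower members were 7 with Iter-PLIER. At an adjusted p under 0.05, 13 were higher with centred arrays and 11 with quantile normalisation (7 in the report), and 24 were lower with Iter-PLIER (13 in the report). Leaving out 1 array gave 6 to 7 higher and 11 to 14 lower. Called lower pathway clusters were 6 with Iter-PLIER, where 5.67% of all clusters were called lower. Over all clusters Iter-PLIER called 444 higher and 924 lower, and centring called 372 and 259, against 317 and 333 with RMA as deposited. Causes of these shifts were not tested.

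Probe sets higher relative to their gene were 4 with RMA values, 47 without filters on level, and 8 to 13 when 1 array was left out (8 without steroid-deplete replicate 3 or 4, 9 without R1881 replicate 4). Those lower were 2, 11, and 0 to 1. The numbers tested and the shares of all probe sets under these settings, and with the replicate block below, are not given. These counts thus cannot be set against the array. *PLXNB1* reversed, at -0.29 with Iter-PLIER and, with 1 array left out, between -0.024 (without steroid-deplete replicate 2) and 0.041.

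The replicate numbers did not pair the arrays: same-numbered arrays had deviations from their group means that correlated at 0.07, 0.10, -0.10 and -0.06, and 1 of 8 arrays correlated best with its own number. With the number as a block, 0 members were called higher and 3 lower, 7 were higher and 11 lower at an adjusted p under 0.05 (*SEMA6A*, *SEMA4B* and *EPHA7* did not pass), and 10 probe sets were higher relative to their gene.

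Arrays give no count of molecules, and 4 arrays a group limit the precision. Of the 64 members 27 lay at or above the median of all clusters, and whether the others were above background was not tested.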
